A study of Homo sapiens with 12 samples.

Results

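Inflammatory cytokines and chemokines were examined in 2 human Ewing sarcoma lines as 10 chosen genes: the chemokines CXCL8, CXCL1, CXCL2, CXCL3 and CCL2, the interleukin-6 family ligands IL6, IL11 and LIF, the colony stimulating factor CSF1, and TNF. They were looked up by gene symbol in a table of raw read counts for 20771 genes, and 5 of the 10 had a row: CXCL8, CXCL2, IL11, CSF1 and TNF. Of these, 4 passed the filter on low counts and were tested among 16515 genes, while CXCL2 did not pass it. CXCL1, CXCL3, IL6, LIF and CCL2 had no row under their symbol or their Ensembl identifier and are reported as not detected.

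The lines were EW8-RRM1-KO and TC71-RRM1-KO, and RNA of each was sequenced in 3 libraries labelled 0 h and 3 labelled 48 h (4 groups, 12 libraries). In all of them the endogenous RRM1 gene, which encodes the catalytic subunit of ribonucleotide reductase, had been disrupted with CRISPR/Cas9, and all carried a lentiviral, codon-optimized RRM1 transgene that doxycycline switches on. The 0 h libraries stand for cells kept in doxycycline and the 48 h libraries for cells left without it for 48 h. The knockout lines were single-cell cloned, so each line stands for 1 clonal derivation. The 48 h groups lost the drug and the transgene together, and these 2 changes cannot be told apart. Loss of ribonucleotide reductase starves cells of deoxynucleotides and stalls DNA replication, and the question was which transcripts change with it.

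Inflammatory cytokines are small secreted or membrane-shed proteins that recruit and instruct immune cells. CXCL8, CXCL1, CXCL2 and CXCL3 attract neutrophils through the receptors CXCR1 and CXCR2, CCL2 attracts monocytes, IL6, IL11 and LIF signal through the shared receptor chain gp130, CSF1 maintains macrophages, and TNF is a master trigger of inflammatory signalling. Many of these genes are held at low transcription in unstressed cells and are switched on by NF-kB and AP-1 binding near their start sites, and their short-lived mRNAs are removed by decay factors such as ZFP36.

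Promoter sequences are shown for 4 of the genes that had counts, because the responses described below differ among them. Each is the 250 bases before the RefSeq transcription start on the GRCh38.p14 assembly, read 5′ to 3′ on the gene's own strand, with matches to AP-1 or NF-kB motifs in capitals. The windows lie at chr4:73740319-73740568 (+ strand) for CXCL8, chr19:55370464-55370713 (− strand) for IL11, chr6:31575315-31575564 (+ strand) for TNF and chr4:74099196-74099445 (− strand) for CXCL2.
CXCL8: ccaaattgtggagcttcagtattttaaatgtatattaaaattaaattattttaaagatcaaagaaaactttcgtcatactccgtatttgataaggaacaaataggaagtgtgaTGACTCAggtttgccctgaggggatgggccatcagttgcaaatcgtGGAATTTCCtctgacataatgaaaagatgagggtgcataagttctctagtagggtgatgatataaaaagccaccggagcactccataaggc
IL11: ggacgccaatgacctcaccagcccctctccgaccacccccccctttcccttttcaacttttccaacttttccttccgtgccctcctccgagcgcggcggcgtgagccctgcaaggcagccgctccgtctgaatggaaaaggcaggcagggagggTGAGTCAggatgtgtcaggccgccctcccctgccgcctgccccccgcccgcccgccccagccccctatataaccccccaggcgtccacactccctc
TNF: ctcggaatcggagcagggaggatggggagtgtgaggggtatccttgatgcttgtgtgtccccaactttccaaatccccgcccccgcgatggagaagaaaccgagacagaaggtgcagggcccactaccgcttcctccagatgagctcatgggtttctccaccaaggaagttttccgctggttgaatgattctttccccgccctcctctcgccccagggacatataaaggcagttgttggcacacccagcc
CXCL2: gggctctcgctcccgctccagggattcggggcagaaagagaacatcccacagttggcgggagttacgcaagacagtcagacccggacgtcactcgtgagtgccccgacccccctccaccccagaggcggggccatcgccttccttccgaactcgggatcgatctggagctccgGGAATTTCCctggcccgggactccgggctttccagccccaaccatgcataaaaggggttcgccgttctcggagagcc

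The motifs searched on both strands were the AP-1 element TGACTCA, the ATF/CRE element TGACGTCA and the NF-kB element GGANTTTCC. No match overlapped another. CXCL8 held an AP-1 match from base −137 to −131 and an NF-kB match from −91 to −83, counted back from the start site. IL11 held an AP-1 match, TGAGTCA on the printed strand, from −96 to −90 and no NF-kB match. CXCL2 held an NF-kB match from −77 to −69, and the TNF window held none of the 3. Among the genes with no row, CXCL1 and CXCL3 each held the same NF-kB letters as CXCL2 (GGAATTTCC) from −78 to −70, and IL6 held GGATTTTCC from −72 to −64. Of 27305 RefSeq promoter windows of the same length, 4.16% held the AP-1 element, 1.77% the ATF/CRE element, 1.47% the NF-kB element and 7.24% any of them. The motifs were chosen with the known elements of CXCL8, CXCL1 and IL6 in mind, so their matches there are not independent, and a match describes letters and not binding. Windows for LIF, CCL2 and CSF1 were not analysed here.

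**Figure D1:**
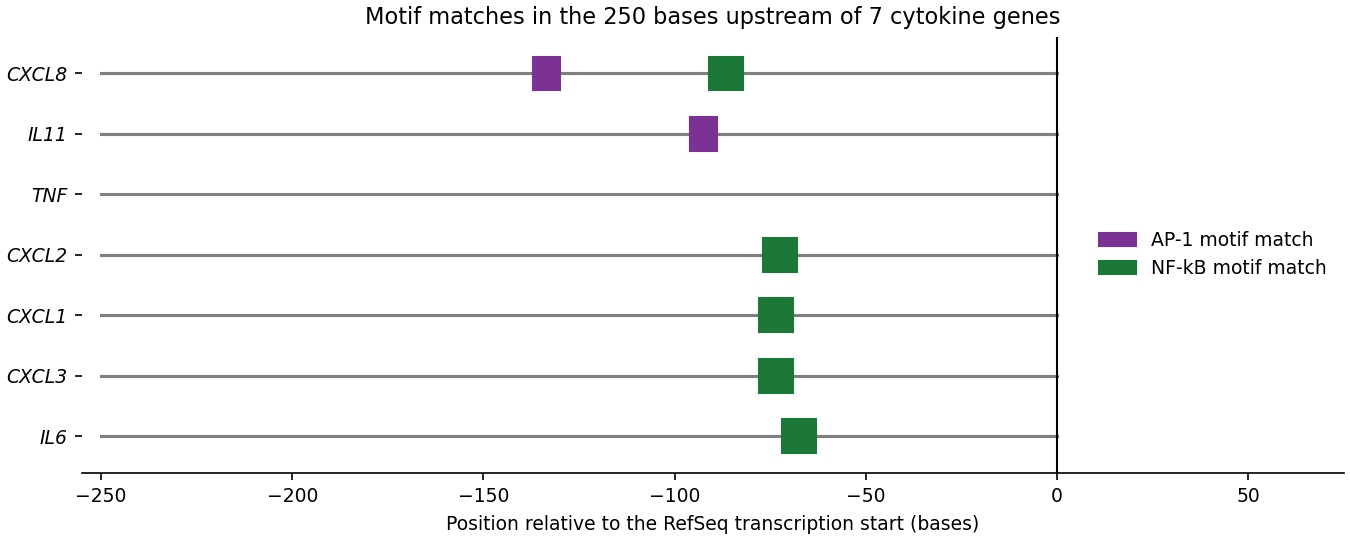
Motif matches in the 250 bases before the RefSeq start of 7 cytokine genes. The x axis is the position in bases relative to the start (0), each grey line is 1 promoter, and purple and green boxes are AP-1 and NF-kB matches. CXCL8 was the only one of the 7 with both kinds of match, IL11 had an AP-1 match alone, and the TNF window had none.

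Counts per library summed to between 18468485 and 35698991 over all genes, so that 3 counts in a library, taken as the floor of detection, correspond to 0.0915 to 0.172 CPM. Levels below are CPM, the count scaled to library size with TMM factors, and intervals and floors cover counting error only. Fold changes are log2 values from edgeR's quasi-likelihood fit over all 12 libraries, and a gene was called with a Benjamini-Hochberg adjusted p below 0.05 and a fold above 2. The labels do not say that the 3 libraries of a group came from separate cultures, so p-values measure the spread between these libraries. All 10 Ewing sarcoma markers checked, among them NKX2-2, CD99 and FLI1, had counts and 0 were called by edgeR in either line, although 10 in EW8 and 9 in TC71 passed the adjusted p with changes of less than 2-fold. NR0B1 lay just under the threshold in EW8 (log2 fold change 0.98), and 1 marker was called there with total-count scaling or without the second 48 h library. RRM1 counts were higher at 48 h, from 9.52 ± 0.148 to 70.2 ± 5.54 CPM in EW8 and from 16.2 ± 0.980 to 25.4 ± 1.19 CPM in TC71 (SD, n = 3), so they do not check the loss of RRM1 protein, and every direction below is as labelled. JUN and FOS, immediate early genes that stalled replication is known to induce, were higher in every library labelled 48 h than in any labelled 0 h of the same line. So were 37.9% of tested genes in EW8 and 25.9% in TC71.

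CXCL8 rose at 48 h in both lines, IL11 in TC71 and TNF in EW8. IL11 was also called higher in EW8, where its groups overlapped and the call was lost without either of 2 single libraries, and 0 of the 10 genes were called lower. In EW8, 3 of the 10 were called higher, where 13.9% of all tested genes were called higher and 3.35% lower. In TC71, 2 of the 10 were called higher, against 3.26% of tested genes higher and 0.854% lower. TNF passed the filter on low counts through the 48 h libraries of EW8 alone, in which it was high. CXCL8 and IL11 reached the filter's level of 0.412 CPM (before TMM scaling) in 3 libraries at 0 h, all of TC71. No EW8 library reached that level for IL11, so it was tested through TC71 alone, where it was high. The counts of calls therefore describe these genes and do not support a general statement on the list. The summed level of the 5 genes was 5.86 to 6.99 CPM per library in EW8 at 0 h and 21.1 to 22.3 CPM at 48 h, and 6.18 to 7.16 CPM in TC71 at 0 h and 11.6 to 13.5 CPM at 48 h.

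**Figure D2:**
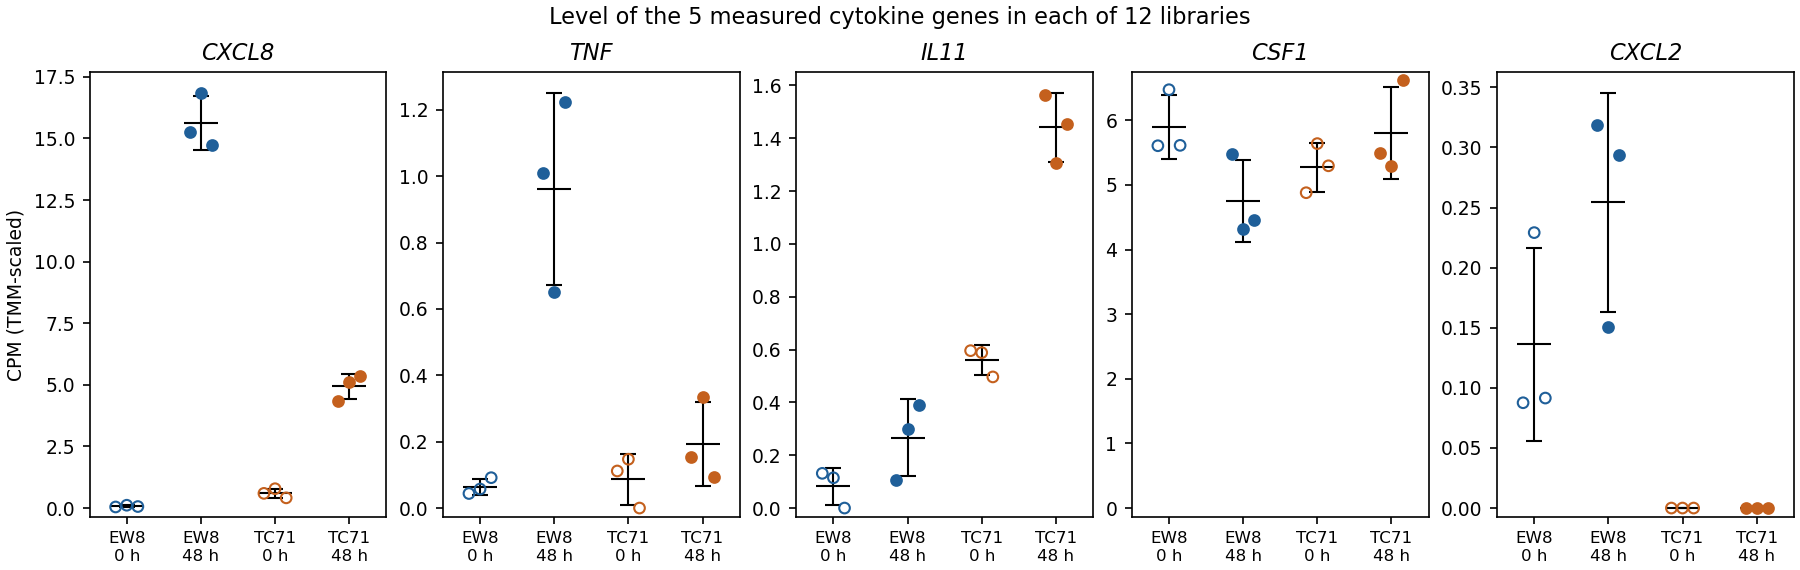
Level of CXCL8, TNF, IL11, CSF1 and CXCL2 in each of the 12 libraries. The y axis of each panel is TMM-scaled CPM on its own linear scale, open points are 0 h and filled points 48 h, blue is EW8 and orange TC71, and bars give the mean ± SD of 3 libraries. CXCL8 separates 0 h from 48 h in both lines, IL11 separates them in TC71 and TNF in EW8, CSF1 stays between 4.31 and 6.62 CPM, and CXCL2 has counts in EW8 alone.

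CXCL8 (ENSG00000169429, interleukin-8, the main neutrophil attractant of this family) lies at chr4:73740519-73743716 on the + strand of hg38 and has 4 exons. Its counts in the 3 EW8 libraries were 1, 2 and 2 at 0 h against 287, 336 and 301 at 48 h. In TC71 they were 16, 16 and 10 at 0 h against 114, 137 and 173 at 48 h. CXCL8 was thus at the floor of detection in EW8 at 0 h, low but above it in TC71, and higher in every 48 h library than in any 0 h library of the same line, as were 37.9% of tested genes in EW8 and 25.9% in TC71. Its level went from 0.0731 ± 0.0369 to 15.6 ± 1.10 CPM in EW8 and from 0.598 ± 0.185 to 4.94 ± 0.521 CPM in TC71 (SD, n = 3). On the log2 scale this was a rise of 7.73 ± 0.24 (SE) in EW8 and of 3.06 ± 0.19 in TC71, with edgeR adjusted p of 1.17e-24 and 6.42e-15. With 5 counts in all at 0 h, the size of the EW8 change is loosely bounded: the ratio of summed CPM was 228 with a 95% exact interval of 97.4 to 704, against 8.45 (6.14 to 11.9) in TC71.

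The CXCL8 response was larger in EW8 than in TC71 by 4.67 ± 0.49 on the log2 scale (edgeR interaction, adjusted p = 1.38e-09), where 7.28% of tested genes were called with a higher response in EW8 and 0.981% with a lower one. The lines also began apart. At 0 h CXCL8 was lower in every EW8 library than in any TC71 library, as were 34.3% of tested genes, by a log2 difference of −3.01 ± 0.51 (adjusted p = 3.42e-06), and the ratio of summed CPM, EW8 to TC71, was 0.116 (0.0359 to 0.294). At 48 h the order was turned: every EW8 library lay above every TC71 library, as for 38.3% of tested genes, and the ratio was 3.14 (2.80 to 3.53). This 48 h comparison between lines was chosen after the values were seen and carries no test.

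The other neutrophil-attracting chemokines were scarcely measured. CXCL2 (ENSG00000081041, chr4:74097040-74099196, − strand) held 2, 4 and 3 counts in EW8 at 0 h, then 6, 3 and 6 without doxycycline, and 0 in all 6 TC71 libraries. Its EW8 groups overlapped, and the ratio of summed CPM, 48 h to 0 h, was 2.06 (0.844 to 5.33). With no filter on low counts the edgeR log2 fold change in EW8 was 0.99 (adjusted p = 0.209). The 0 h difference, EW8 against TC71, was then 4.64 (edgeR adjusted p = 0.00581), a fitted size that rests on 0 counts in TC71. Against a floor of 3 counts over the TC71 group, the ratio of EW8 to TC71 was 2.93 at 0 h and 7.21 at 48 h. These ratios leave out the counting error of the few EW8 counts and are not firm lower bounds. By the same floor, 0 counts over the 6 TC71 libraries allow up to 0.0191 CPM.

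CXCL1 (chr4:73869393-73871308) and CXCL3 (chr4:74036589-74038807) belong to the same gene cluster as CXCL8 and CXCL2, which spans 358.678 kb of chromosome 4 from the start of CXCL8 to the end of CXCL2. Of the 10 protein-coding genes annotated there, 2 had a row, and these were its outermost genes, CXCL8 and CXCL2. CXCL6, CXCL5, PF4 and PPBP, which lie between them, had no row. A missing row is not a count of 0. The smallest row sum in the table was 21 counts, and widely expressed genes such as IKBKG and CD68 had no row either. CCL2 (chr17:34255274-34257208), the monocyte attractant, and the 17 other CC chemokines looked up had no row.

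Of the interleukin-6 family ligands chosen, IL11 alone had a row. IL11 (ENSG00000095752, chr19:55364382-55370463, − strand, 5 exons), a gp130 ligand known for its part in fibrosis and bone turnover, had 16, 12 and 12 counts in the TC71 libraries at 0 h against 41, 35 and 47 at 48 h. In EW8 the counts were 3, 2 and 0 at 0 h against 2, 6 and 8 at 48 h. The TC71 groups were apart, every 48 h library being higher, as for 25.9% of tested genes, while the EW8 groups overlapped. Its level went from 0.560 ± 0.0554 to 1.44 ± 0.130 CPM in TC71 and from 0.0820 ± 0.0715 to 0.266 ± 0.146 CPM in EW8 (SD, n = 3).

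IL11 rose by 1.36 ± 0.29 on the log2 scale in TC71 (edgeR adjusted p = 0.000238) and by 1.90 ± 0.69 in EW8 (adjusted p = 0.0156). The EW8 call rested on single libraries: it was lost without the third 0 h library, which held 0 counts (log2 fold change 1.06, adjusted p = 0.170), and without the third 48 h library (1.52, adjusted p = 0.106). The responses of the lines differed by 0.54 ± 0.73 on the log2 scale, which was not called (adjusted p = 0.566) and leaves differences in either direction possible at this depth. Before doxycycline was removed IL11 was lower in EW8 than in TC71, with a log2 difference of −2.94 ± 0.56 (adjusted p = 2.73e-05), which was −3.64 without the first and −2.12 without the third EW8 0 h library. CXCL8 and IL11 were the 2 of the 10 genes called lower in EW8 at 0 h, where 11.9% of tested genes were called lower and 4.77% higher. IL11 reached the filter's level in TC71 libraries alone, the line in which it was high, so its lower call describes this gene alone. At 48 h every EW8 library of IL11 was still below every TC71 library, as for 36.3% of tested genes, with a ratio of 0.188 (0.104 to 0.317), so the order of the lines turned for CXCL8 and not for IL11. IL6 (chr7:22725884-22732002) and LIF (chr22:30240453-30246759), both of which share exon bases with antisense or neighbouring genes in GENCODE, had no row.

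CSF1 (ENSG00000184371, chr1:109910242-109930992, + strand, 9 exons), the growth factor of macrophages and monocytes, varied least over the 12 libraries among the 4 tested cytokines. EW8 libraries had 128, 113 and 184 counts at 0 h against 103, 86 and 91 at 48 h. TC71 libraries had 131, 115 and 128 at 0 h against 144, 142 and 214 at 48 h. After scaling, every EW8 library at 48 h lay below every EW8 library at 0 h, as for 33.2% of tested genes, and the TC71 groups overlapped. The level was 5.90 ± 0.499 and 4.75 ± 0.636 CPM in EW8, and 5.27 ± 0.381 and 5.80 ± 0.712 CPM in TC71 (0 h and 48 h, SD, n = 3).

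The fitted log2 change of CSF1 was −0.30 ± 0.13 in EW8 (edgeR adjusted p = 0.0380), and in TC71 it was 0.15 ± 0.12 (adjusted p = 0.316). The EW8 value passed the adjusted p without the fold threshold, as did 31.6% of tested genes in that direction, and the gene was not called. The difference between the responses was −0.46 ± 0.18 (adjusted p = 0.0316), also under the fold threshold, at an adjusted p that 22.4% of tested genes passed with a lower and 25.7% with a higher response in EW8. Neither p was stable: over the other settings the adjusted p ran from 0.0171 to 0.235 for EW8 and from 0.0223 to 0.0780 for the difference. At 0 h the lines differed by 0.15 ± 0.12 (adjusted p = 0.273).

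TNF (ENSG00000232810, chr6:31575565-31578336, + strand, 4 exons), made mainly by macrophages and T cells, was near the floor of detection in 3 of the 4 groups. The EW8 libraries held 1, 1 and 3 counts at 0 h against 19, 13 and 25 at 48 h. The TC71 libraries held 3, 3 and 0 at 0 h against 4, 9 and 3 at 48 h. In EW8 every 48 h library was above every 0 h library, as for 37.9% of tested genes, and the TC71 groups overlapped. The level went from 0.0642 ± 0.0246 to 0.962 ± 0.289 CPM in EW8 and from 0.0863 ± 0.0768 to 0.194 ± 0.127 CPM in TC71 (SD, n = 3).

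In EW8 the TNF log2 fold change was 3.72 ± 0.54 (edgeR adjusted p = 2.52e-07), and the ratio of summed CPM was 14.1 (5.69 to 45.0). In TC71 the values were 1.11 ± 0.71 (adjusted p = 0.213) and 2.23 (0.829 to 6.96), so no change was detectable at this depth. The difference between the responses was 2.61 ± 1.07 (adjusted p = 0.0444). That call held when the second 48 h library of EW8, the third 0 h library of TC71 or the second 48 h library of TC71 was left out, and was lost without any one of the other 9 (log2 difference 2.12 to 3.01, adjusted p 0.0565 to 0.206). The lines did not separate at 0 h (log2 difference −0.28, adjusted p = 0.804). At 48 h TNF was higher in every EW8 library than in any TC71 library, as were 38.3% of tested genes, with a ratio of 5.14 (2.91 to 9.58), a comparison chosen after the values were seen and not tested.

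**Figure D3:**
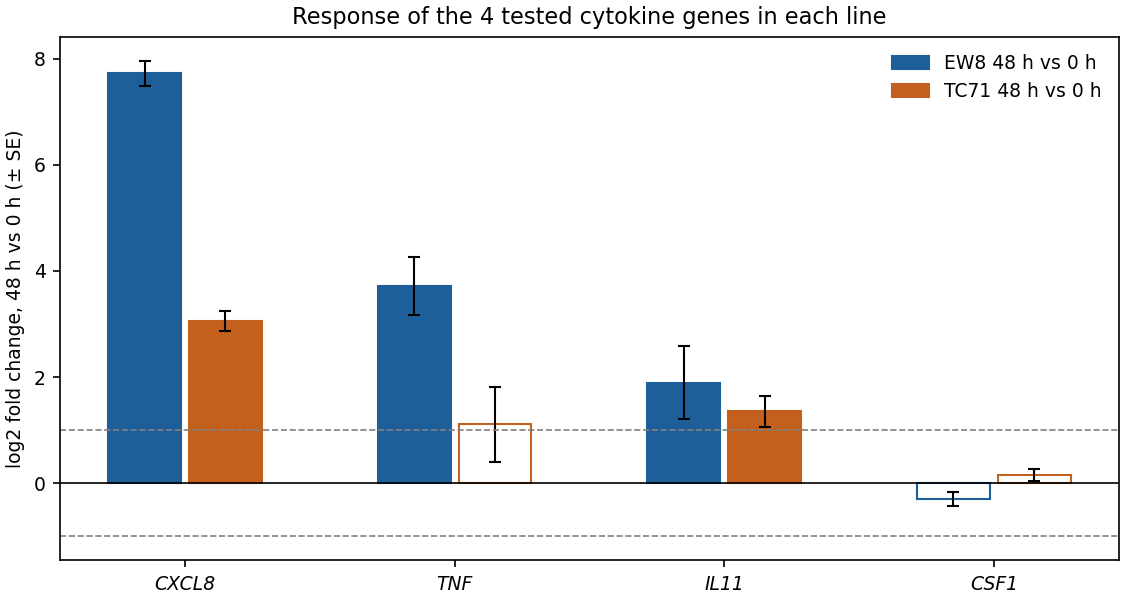
Response of CXCL8, TNF, IL11 and CSF1 at 48 h in each line. The y axis is the log2 fold change, 48 h against 0 h, from the edgeR fit over 12 libraries, bars start at 0, error bars are ± SE, dashed lines mark a fold of 2, and open bars were not called. CXCL8 was 7.73 in EW8 and 3.06 in TC71, TNF was called in EW8 alone, IL11 was called in both lines, and CSF1 lay near 0.

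Ranked by level per kilobase of merged exon, which allows levels of different genes to be compared, the order of the 5 genes changed at 48 h. At 0 h CSF1 led in both lines, at 1.13 CPM per kb in EW8 and 1.01 in TC71, and the next gene stood at 0.0973 (CXCL2) in EW8 and 0.231 (CXCL8) in TC71. In EW8 at 0 h the ranges of CXCL2, TNF, IL11 and CXCL8 over libraries left most of these neighbours unseparated, with means of 0.0283 to 0.0973 CPM per kb, and in TC71 CXCL8 and IL11 (0.209) overlapped. At 48 h CXCL8 led in both lines, at 6.03 CPM per kb in EW8 and 1.91 in TC71. CSF1 followed at 0.906 and 1.11, then TNF at 0.573 in EW8 and IL11 at 0.538 in TC71, while CXCL2 (0.182) and IL11 (0.0994) were last in EW8 and TNF (0.115) and CXCL2 (0) in TC71.

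The genes whose levels followed each cytokine most closely were found as the smallest root mean square difference of centred log2 CPM over the 12 libraries. For CXCL8 they included EGR3 (0.563) and JUN (0.574), against a standard deviation of 2.59 for CXCL8 itself. For TNF they were TRAV4 (0.402), CSF1R (0.431) and UNC5A (0.443), against 1.22, and for IL11 they were FOXI3 (0.362), GIMAP6 (0.362) and SLC16A8 (0.377), against 1.30. For CSF1, whose own standard deviation was 0.173, they were HSPB1, SBF1 and CYB5R3 (0.0864 to 0.0928). The 12 libraries fall into 4 groups, so these distances rest on few independent points. JUN, the AP-1 subunit, rose by 6.55 ± 0.09 in EW8 and 4.44 ± 0.08 in TC71, and FOS by 6.29 ± 0.11 and 5.77 ± 0.12 on the log2 scale. All 5 AP-1 genes looked up were called higher in both lines, as were 13.9% of tested genes in EW8 and 3.26% in TC71. The study had already reported each of the 5 as increased in these same data, so their count is not an independent result.

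The receptors for these cytokines were looked up as 13 genes, of which 6 had a row, and 2 of these were called higher in each line, beside 13.9% of all tested genes in EW8 and 3.26% in TC71. Both of them, CSF1R and IL6R, reached the filter's level in fewer than 3 of the 0 h libraries and entered the test through the 48 h libraries, so their calls describe these genes alone. CSF1R, the receptor for CSF1, held 10, 6 and 11 counts in EW8 at 0 h against 85, 76 and 87 at 48 h. In TC71 CSF1R held 14, 10 and 5 counts at 0 h against 25, 21 and 29 at 48 h. It rose by 3.48 ± 0.24 on the log2 scale in EW8 and by 1.10 ± 0.30 in TC71 (edgeR adjusted p = 6.76e-15 and 0.00370), and the responses differed by 2.38 ± 0.44 (adjusted p = 3.12e-05). The TC71 call fell under the fold threshold without the third 0 h library (0.79). IL6R, the receptor that binds IL-6, had a log2 fold change of 2.57 ± 0.32 in EW8, and in TC71, with 1 count in each library at 0 h, it was 2.27 ± 0.68. Of the ligands of these receptors, CSF1 was not called and IL6 had no row.

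The chains through which IL11, LIF and TNF signal changed little. IL6ST, which encodes gp130, had log2 fold changes of −0.13 in EW8 and 0.02 in TC71, IL11RA 0.00 and 0.08, and TNFRSF1A 0.09 and 0.10, with 0 of these called. IL11RA was lower in EW8 than in TC71 at 0 h by −3.34 on the log2 scale, as was its ligand. CXCR1 and CXCR2, the receptors for CXCL8, and ACKR1, CCR2, CCR4, ACKR2 and TNFRSF1B had no row. The median log2 fold change of the 6 receptors was 0.05 in EW8 and 0.09 in TC71, beside 0.03 and 0.00 over all tested genes.

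Other ligands of the same families were mostly not measured. Those called in EW8 or TC71 were higher at 48 h, as were 13.9% and 3.26% of all tested genes, but CXCL11, TNFSF14 and IL23A also passed the filter through 48 h libraries in which they were high, so their calls describe these genes alone. Of 13 other CXC and CX3C chemokines 4 had a row and 3 were tested. CXCL11, an attractant of T cells, held 0, 1 and 0 counts in EW8 at 0 h against 16, 16 and 14 at 48 h (log2 fold change 5.37 ± 0.69, edgeR adjusted p = 1.97e-08), while in TC71 it held 1 count in each 0 h library and 1, 1 and 4 at 48 h (0.68 ± 0.92, adjusted p = 0.584). The CXCL11 responses differed by 4.70 ± 1.53 (adjusted p = 0.0109), a fitted size that is not firm with so few counts at 0 h. Without the second EW8 0 h library the EW8 values were 7.25 for CXCL11 and 4.12 for CX3CL1, and without the third that of CXCL11 was 4.67. CX3CL1, a membrane-bound chemokine, rose by 2.85 ± 0.51 in EW8, where it held 0, 5 and 2 counts at 0 h, and by 1.13 ± 0.16 in TC71, but its level at 48 h was 0.725 ± 0.0948 CPM in EW8 and 5.45 ± 0.442 CPM in TC71 (SD, n = 3).

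Of 26 other interleukins and interleukin-6 family ligands 12 had a row and 5 were tested, with 3 called higher in EW8 and 0 in TC71. The EW8 count ran from 3 to 5 with 1 library left out and from 2 to 8 under the other settings. Genes called in the main fit included CLCF1 (2.07), a gp130 cytokine, and IL23A (1.36), a subunit of interleukin-23. In TC71 the adjusted p of edgeR alone was passed by CLCF1 (0.64) and IL17D (−0.40), among others. Like IL11, CLCF1 was called lower in EW8 than in TC71 at 0 h, at 0.485 ± 0.0748 against 3.89 ± 0.111 CPM (SD, n = 3). Of 18 other TNF superfamily ligands and colony stimulating factors 11 had a row and 5 were tested, and 2 were called higher in each line, TNFSF14 in both (2.25 in EW8, 1.44 in TC71), TNFSF9 in EW8 (1.70) and TNFSF15 in TC71 (1.33). The TNFSF14 call in TC71 was lost with DESeq2 (adjusted p = 0.0652) and without the first 0 h or the third 48 h library (0.0858 and 0.161), and the IL23A call was lost without the third EW8 0 h library (0.0513), without which TNFSF14 was 3.09 in EW8. The median of the TNF ligands was 0.92 in EW8 and 0.82 in TC71.

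**Figure D4:**
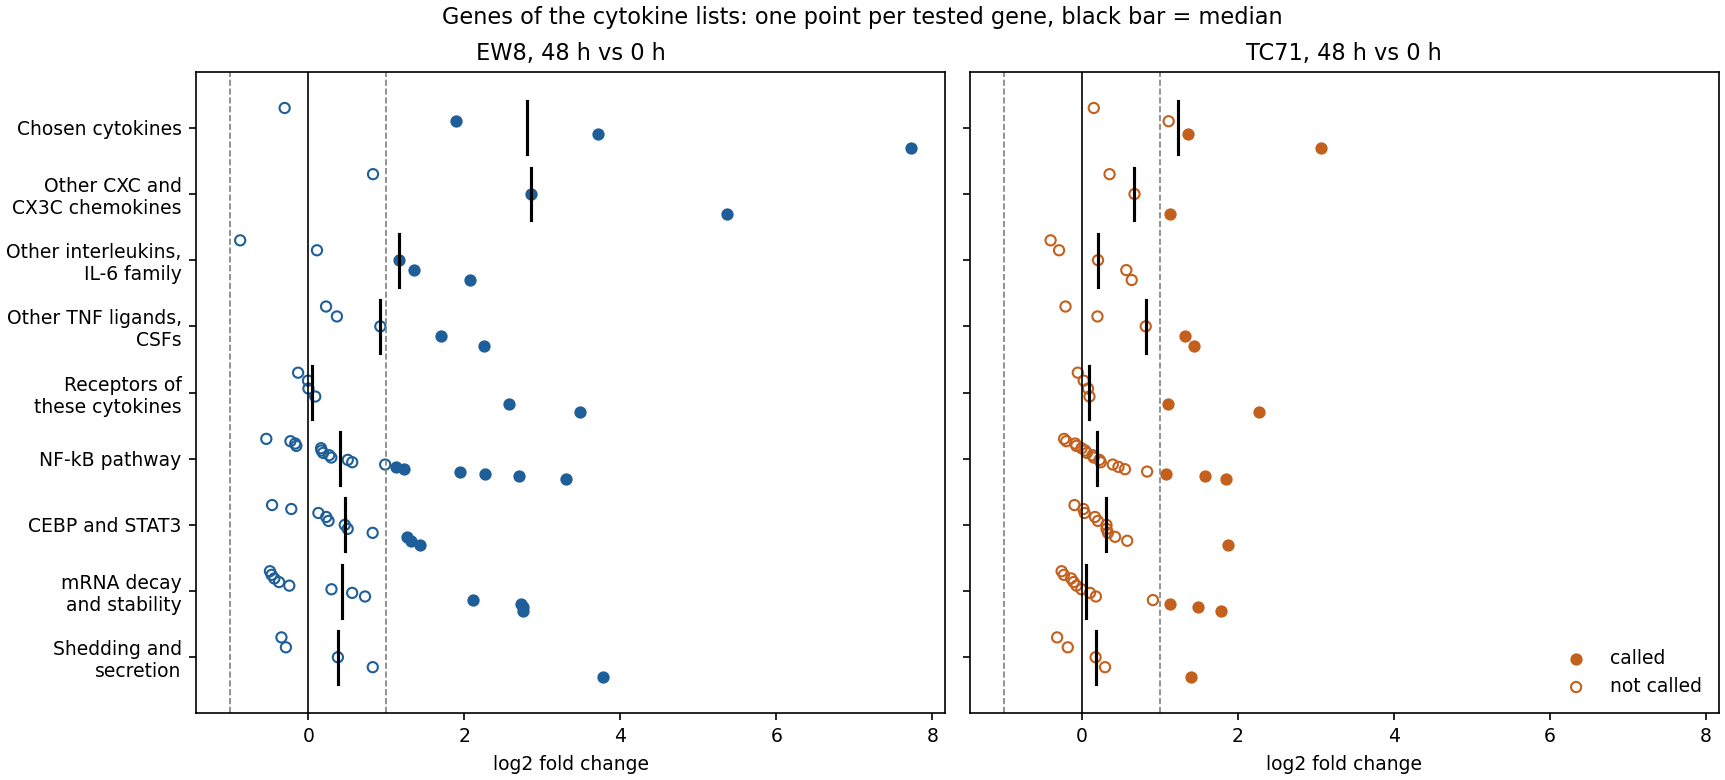
Log2 fold changes, 48 h against 0 h, of the tested genes of 9 lists in EW8 (left) and TC71 (right). Each point is 1 gene, filled points were called, the black bar is the list's median and dashed lines mark a fold of 2. In EW8 CXCL8 is the point farthest to the right, 0 genes of these lists were called lower by edgeR in either line, where 3.35% of tested genes in EW8 and 0.854% in TC71 were, and the receptor medians of 0.05 and 0.09 lie near 0.

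Among NF-kB, CEBP and STAT3 pathway genes some subunits and some inhibitors rose, while RELA, NFKB1 and STAT3 were not called in either line. Of 20 NF-kB subunits, inhibitors and kinases 18 were tested, with 6 called higher in EW8 and 3 in TC71, where 13.9% and 3.26% of all tested genes were. RELB, a subunit of the alternative pathway, rose by 3.31 ± 0.18 in EW8 and 1.85 ± 0.17 in TC71, TNFAIP3, a feedback inhibitor, by 2.70 ± 0.07 and 1.57 ± 0.07, and NFKBIZ, an IkB protein that helps to switch IL6 on, by 2.26 ± 0.17 and 1.08 ± 0.18. NFKBIZ fell under the fold threshold in TC71 without the second 48 h library (0.99). NFKBIA, the classical inhibitor, had log2 fold changes of −0.54 ± 0.06 and −0.20 ± 0.06, under the fold threshold. The list medians were 0.40 in EW8 and 0.19 in TC71. Of 11 tested CEBP and STAT3 pathway genes 3 were called higher in EW8 and 1 in TC71, beside the same shares of all genes. They were CEBPG (1.32) and CEBPB (1.27) in EW8, and in both lines SOCS1 (1.43 and 1.87), a brake on cytokine receptors that passed the filter through its 48 h libraries. The list medians were 0.47 and 0.32.

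Genes that act on cytokine mRNA or protein after transcription also included some that rose. Of 12 mRNA decay and stability factors 4 were called higher in EW8 and 3 in TC71, beside 13.9% and 3.26% of all tested genes. These held both directions of activity: ZFP36 (2.72 ± 0.12 in EW8, 1.79 ± 0.11 in TC71) and, in EW8, ZFP36L1 (2.11 ± 0.05) promote the decay of AU-rich cytokine mRNAs, ARID5A (2.75 ± 0.08 and 1.13 ± 0.08) stabilises IL6 mRNA, and DUSP1 (2.75 ± 0.07 and 1.48 ± 0.08) switches off the kinases that keep such mRNAs stable. The list medians were 0.43 and 0.05. Of 5 shedding and secretion genes 1 was called in each line, where 13.9% and 3.26% of all genes were called higher: RHBDF1, a partner of the TNF-releasing protease ADAM17 (3.78 ± 0.16 and 1.40 ± 0.17), while ADAM17 itself had 0.83 ± 0.05 and 0.30 ± 0.05, under the fold threshold.

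Leukocyte markers were at or near the floor, while the fibroblast markers PDGFRB and DCN were well above it in both lines and LUM in EW8. Of 12 leukocyte markers 4 had a row, and PTPRC held 0 to 5 counts and CD14 1 to 5 counts in every library. CD3E, LYZ, TYROBP, CD74 and CD68 had no row, and a missing row is not a count of 0. The summed level of the list was 0.229 to 0.745 CPM per library in EW8 at 0 h and 0.902 to 1.27 CPM at 48 h, and 0.455 to 0.633 and 0.687 to 0.742 CPM in TC71. ITGAM was the only one tested, passed the filter through its 48 h libraries, and was higher there (4.02 ± 0.65 in EW8, edgeR adjusted p = 1.40e-06, and 1.03 ± 0.41 in TC71, adjusted p = 0.0449), from 1, 0 and 1 counts to 10, 8 and 13 counts in EW8. The TC71 call of ITGAM was lost with DESeq2 (adjusted p = 0.162) and without most single libraries. The summed level of 8 fibroblast and endothelial markers, 4 with a row, was 32.3 to 35.0 CPM at 0 h and 65.3 to 67.5 CPM at 48 h in EW8, and 90.6 to 93.5 and 142 to 149 CPM in TC71, and PDGFRB was called in EW8 (1.28). The part of these markers in the cytokine changes was not tested. In bulk RNA, more cells with a transcript and more of it per cell cannot be told apart.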

How the data were processed

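RNA was isolated with the RNeasy Plus Mini Kit, made into TruSeq Stranded mRNA libraries and sequenced as paired-end 100 bp reads. The authors checked the reads with FastQC, mapped them to hg38 with STAR and deposited a table of raw counts per gene, 1 column per library, without normalization. The counter, its strand setting and the annotation release are not given in the sources used here. The smallest row sum was 21, so rarer genes have no row, by a rule that is likewise not given. All 12 columns were matched to a library by their names, and 0 other columns held values.

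The test was edgeR's (version 4.0.16, under R 4.3.3): filterByExpr with a minimum count of 10 and a minimum total of 15, TMM factors, a joint dispersion and a quasi-likelihood fit (robust) with 1 mean for each of the 4 groups, and Benjamini-Hochberg adjustment over 16515 genes. The contrasts were 48 h against 0 h in each line, the difference of these, and EW8 against TC71 at 0 h. Thresholds (adjusted p below 0.05, fold above 2) are those of the study. The SE is the log2 fold change divided by the square root of F. Depth was 18468485 to 35698991 counts per library, replicates of a group differed by more than sampling noise (chi-square per gene 1.95 to 8.56), and the biological coefficient of variation was 4.17%. Ratios of summed CPM carry 95% exact conditional intervals. Low levels are given against a floor of 3 counts.

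Named genes were the 10 cytokines, the called genes of 13 hand-written lists (up to 4 per list and direction) and any listed gene whose role was needed, the 3 genes nearest each tested cytokine (prior count 2, a mean of at least 20 counts in some group), and RRM1, JUN and FOS. A few genes that this rule would name are not reported here. Genes named as having no row come from those lists or from the chromosome 4 cluster. The cytokines and lists were chosen with earlier results of these data known. Gene positions and exon lengths came from GENCODE 44 (hg38), and promoters from a RefSeq table (GRCh38.p14), in which 7 of 10 genes were found. The procedure was checked on simulated counts. Alternatives were other scalings, filters and thresholds, DESeq2 1.42.0, a non-robust fit, single-line fits, replicate blocks, and each library left out. Figures used Python 3.11.15 and matplotlib 3.10.9.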

Additional observations from a re-analysis of the deposited data

Results flagged for a closer look

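The responses of 3 of the 4 tested cytokines differed between EW8 and TC71 by the edgeR interaction test, in which 25.7% of all tested genes had a larger and 22.4% a smaller response in EW8 at an adjusted p below 0.05 with no fold threshold. The response of CXCL8 was 4.67 log2 units larger in EW8 than in TC71 (adjusted p = 1.38e-09), and every 48 h library was above every 0 h library in both lines. TNF had a response larger in EW8 by 2.61 (adjusted p = 0.0444), a call that 9 of 12 single libraries could remove. TNF also passed the filter on low counts through the EW8 48 h libraries alone, in which it was high, so its call describes this gene alone. CSF1 differed by −0.46 (adjusted p = 0.0316), with lower values at 48 h in every EW8 library and overlapping groups in TC71, and the size is under the fold threshold. The adjusted p of the CSF1 difference was 0.0510 with a replicate block and reached 0.116 with 1 library left out. The count of 3 therefore describes these genes and does not support a general statement on the list.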

How the results depend on the processing

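With no fold threshold, 11329 genes were called in EW8, 6955 in TC71, 7940 for the difference and 10854 between the lines at 0 h, against 2848, 680, 1364 and 2751 with it. With a filter of at least 1 CPM in 3 libraries, 1 cytokine was called for the difference instead of 2, because TNF was not tested there. With no filter on low counts, 3 cytokines were called at 0 h instead of 2, CXCL2 among them. With 1 library left out, the cytokines called numbered 2 to 3 in EW8, 2 in TC71, 1 to 2 for the difference and 2 at 0 h, and the genes called 2827 to 3018, 634 to 731, 1265 to 1423 and 2732 to 2875. Signs turned in 3 values that were not called: the IL11 difference became −0.28 without the third EW8 0 h library (adjusted p = 0.823, leave-one-out range −0.28 to 1.23), and the TNF difference at 0 h became 0.018 and 0.19 without the first and second TC71 0 h library (range −0.85 to 0.19). CXCL8 kept its direction and its call in both lines under every alternative run (log2 7.49 to 8.01 in EW8 and 2.86 to 3.27 in TC71). Scaling by total counts alone moved the median of all genes from 0.03 to 0.16 in EW8 and from −0.01 to −0.14 between the lines at 0 h. Of 1016 values of listed genes recomputed under these alternatives, a check added after the data were seen, 21 lost the call and 0 changed sign.

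Same-numbered libraries did not deviate together (correlations −0.138 to −0.0147), so the numbers gave no sign of pairing. Deviations from means of 3 libraries cannot exclude it. With a replicate block within each line, 2833, 631, 1302 and 2739 genes and 3, 2, 2 and 2 cytokines were called, and the adjusted p of the CSF1 difference was 0.0510. Depth limits TNF, IL11 in EW8 and CXCL2, each at a few counts per library at 0 h. The single-line fits could not test IL11 in EW8 or TNF in TC71, which their filter removed.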

Other observations

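Beyond the chosen cytokines, TNFSF13B, which encodes the B cell survival factor BAFF, was higher in EW8 than in TC71 at 0 h by 3.06 ± 0.16 on the log2 scale (edgeR adjusted p = 6.99e-18), whereas TNFSF15, another TNF family ligand, was lower (adjusted p = 2.97e-08). TNFSF15 held 0 or 1 count in every EW8 library and 14, 17 and 18 counts in TC71 at 0 h and 47, 45 and 56 at 48 h. It passed the filter on low counts through TC71 alone, where it was high, so its lower call in EW8 describes this gene alone. CXCL10, which lay below the filter on low counts, held 0 counts in all 3 EW8 libraries at 0 h and 5, 14 and 8 at 48 h, and in TC71 1, 0 and 0 at 0 h and 0, 0 and 3 at 48 h. IL17D, an interleukin-17 family ligand, had a log2 fold change of −0.87 ± 0.15 in EW8 (adjusted p = 6.06e-06), while that in TC71 was −0.40 ± 0.15 (adjusted p = 0.0256), both under the fold threshold. These genes come from the lists of related ligands and were picked here after their values were seen.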
